A study of Mus musculus with 7 samples.

Results

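The Steap family of metal reductases and 6 other genes of iron and heme handling were followed in C3H10T1/2 cells exposed to purmorphamine. These 10 genes (Steap1, Steap2, Steap3, Steap4, Tfrc, Slc40a1, Slc11a2, Slc39a14, Fth1 and Hmox1) were chosen by name from the 18468 genes of the count table, with the strong increase of Steap4 in this same comparison already known. Their differences between treatments are therefore given as a description, without a test. C3H10T1/2 cells are mouse mesenchymal cells with osteoblastic and adipogenic potential. The cells were used for no more than 10 passages according to the sample labels, and were deprived of serum for 12 h. They then received 2 μM purmorphamine, a small-molecule agonist of Smoothened (4 libraries, numbered 5 to 8), or 0.02% DMSO as vehicle (3 libraries, numbered 2 to 4) for 48 h, still without serum. Nothing in the labels says whether the libraries came from separate cultures, so the spread between them may be partly technical. In such bulk RNA, fewer expressing cells and less RNA per cell cannot be told apart.

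Ferric iron has to be reduced before most transporters can carry it, and the STEAP proteins, membrane enzymes of endosomes and the cell surface, can reduce ferric iron and, for several of them, cupric copper. Iron bound to transferrin enters through the transferrin receptor (Tfrc), is reduced in the endosome by Steap3 and leaves it through Slc11a2 (DMT1), whereas Slc39a14 (ZIP14) carries iron that is not bound to transferrin. Inside the cell iron is stored in ferritin, made of heavy (Fth1) and light (Ftl1) chains, is exported by ferroportin (Slc40a1), or is released from heme by heme oxygenase 1 (Hmox1). When iron is scarce the iron regulatory proteins bind a hairpin, the iron-responsive element, in the transcripts of several of these genes, blocking translation from the 5′ untranslated region and stabilizing the transcript from the 3′ untranslated region.

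The hairpins are shown here because they are a pattern of bases that some of these transcripts share. The spliced GENCODE M21 transcripts (GRCm38) were searched on the transcript strand for a C, 5 bases of any kind, the letters CAGTG, 1 further base and then 5 bases able to pair (G with T allowed) with the 5 bases before CAGTG. The capitals mark the loop letters CAGTG, and T stands for U.
Fth1, 5′ untranslated region, chr19:9982738-9982754, plus strand: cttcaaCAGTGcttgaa
Ftl1, 5′ untranslated region, chr7:45459785-45459801, minus strand: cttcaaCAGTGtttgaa
Slc40a1, 5′ untranslated region, chr1:45925471-45925487, minus strand: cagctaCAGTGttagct
Tfrc, 3′ untranslated region, chr16:32631225-32631241, plus strand: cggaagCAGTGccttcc
Tfrc, 3′ untranslated region, chr16:32631604-32631620, plus strand: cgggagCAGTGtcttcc
Tfrc, 3′ untranslated region, chr16:32631669-32631685, plus strand: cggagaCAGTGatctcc
Tfrc, 3′ untranslated region, chr16:32631716-32631732, plus strand: cgggaaCAGTGtttccc
Of the 11599 genes searched, 27 (0.233%) held such a match in a 5′ untranslated region and 97 (0.836%) in a 3′ untranslated region. Of the 10 genes, Fth1, Slc40a1 and Tfrc held a match and the other 7, Slc11a2 among them, did not. Among the other iron genes, Ftl1 held one and so did Bola3, of the iron-sulfur list, in its 3′ untranslated region at chr6:83358427-83358443, plus strand. The elements of Fth1 and Ftl1 have nearly the same letters. A match describes the letters only, and none of these data measure binding of the iron regulatory proteins. A gene without a match, Slc11a2 included, may still hold an element. The search would miss one with an unpaired base among the 5 pairs.

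The libraries held from 14337225 to 14342154 reads, since the authors had resampled the reads to equal numbers. Where no read was counted, up to 3 reads could have been missed by counting error alone. The treatment was visible in the Hedgehog targets Gli1, with 7 to 12 reads with vehicle and 2522 to 3171 with purmorphamine, and Ptch1, with 504 to 532 and 10296 to 11451 reads. Hhip, also a target, had at most 1 read with vehicle and 139 to 197 with purmorphamine. The mesenchymal markers Col1a1, Col1a2, Col3a1, Pdgfra and Vim had 10552 reads or more in every library, with log2 fold changes of 0.76 for Pdgfra and -0.96 for Vim. Twist2, another mesenchymal gene, rose by 2.11 on the log2 scale from 36 to 42 reads with vehicle, whereas Ptprc and Alb had at most 1 read in any library.

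All 10 genes passed the filter on low counts, and Steap1 passed it only through the vehicle libraries, where it was higher. In edgeR's quasi-likelihood fit across the 12388 genes tested, 10 of the 10 had a Benjamini-Hochberg adjusted p under 0.2 (5 higher and 5 lower), where 62.5% of all genes tested did (31.4% higher and 31.1% lower). For 8 of the 10 the purmorphamine and vehicle libraries did not overlap (5 higher and 3 lower), as was the case for 49.5% of all genes tested (29.1% higher and 20.4% lower). Because the genes were listed with this contrast known, nothing is read from these counts. A change of at least 1.5-fold with an adjusted p under 0.2 was seen for 5 genes, Steap1, Steap3, Steap4, Fth1 and Slc40a1. The same held for 15.4% of all genes tested, and nothing is read from this count either. The coefficient of variation between libraries of a treatment ran from 1.09% (Slc39a14, vehicle) to 21.7% (Steap1, vehicle).

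**Figure D1:**
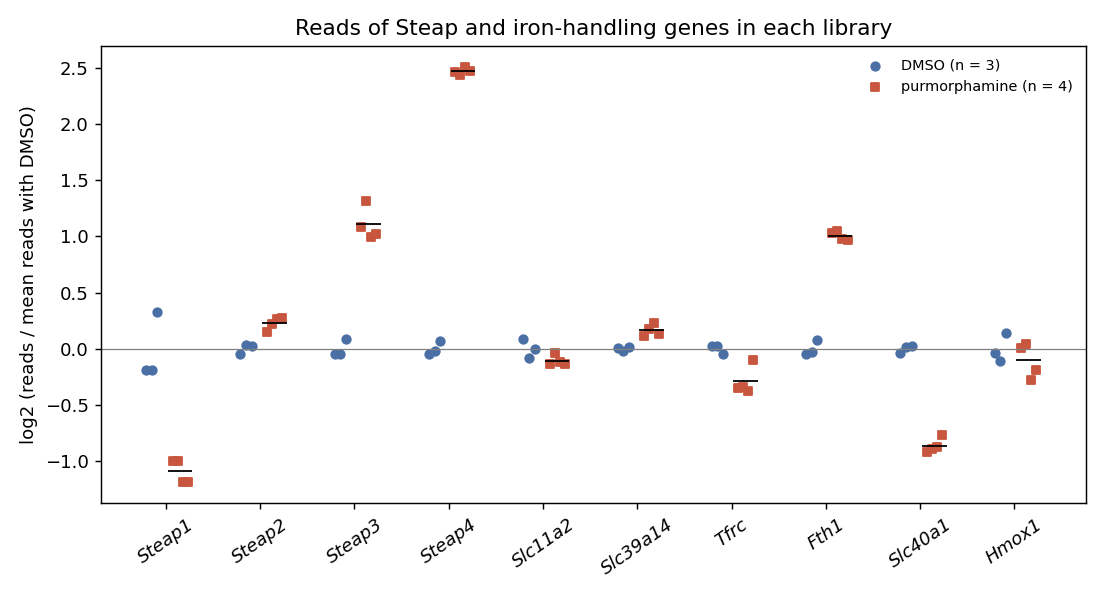
Reads of each gene in each library, as log2 of the reads over the mean with DMSO. Circles are the 3 DMSO libraries, squares the 4 purmorphamine libraries and bars the purmorphamine mean; Steap4 sits highest, Steap3 and Fth1 near a doubling, and Steap1 and Slc40a1 lowest.

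Among the reductases, Steap4, which is found in adipose tissue and responds to inflammatory cytokines in other settings, had the most marked difference. Steap4 (ENSMUSG00000012428, chromosome 5 from 7960457 to 7982213 in GRCm38, plus strand) was counted at 671, 682 and 726 reads in DMSO and at 3827, 3757, 3961 and 3855 reads after purmorphamine. Every purmorphamine library lay far above every vehicle library, and the libraries of a treatment differed little. On average 693 ± 29.1 reads (SD, n = 3) stood against 3850.0 ± 84.7 reads (SD, n = 4), 5.56 times as many. Its log2 fold change after TMM scaling, 2.43 ± 0.0519 (SE), placed it at rank 74 from the top among the 12388 genes tested.

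Steap3, the ferrireductase of the transferrin cycle (ENSMUSG00000026389, chromosome 1 from 120190757 to 120272705, minus strand), was counted at 1334, 1334 and 1460 reads in DMSO and at 2927, 3436, 2741 and 2801 reads after purmorphamine. The groups did not overlap, and the purmorphamine library numbered 6 was the highest. The ratio of the means was 2.16 and the log2 fold change 1.07 ± 0.0693 (SE).

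Steap2, which can reduce both iron and copper (ENSMUSG00000015653, chromosome 5 from 5664829 to 5694578, minus strand), was counted at 701, 741 and 739 reads in DMSO and at 805, 845, 873 and 876 reads after purmorphamine. The difference was small beside those of Steap3 and Steap4, but the groups did not overlap. Its log2 fold change was 0.18 ± 0.0548 (SE).

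Steap1 (ENSMUSG00000015652, chromosome 5 from 5736317 to 5749326, minus strand), a family member that lacks the reductase domain of the others, was close to the limit of detection and differed in the other direction. It was counted at 14, 14 and 20 reads in DMSO and at 8, 8, 7 and 7 reads after purmorphamine, a log2 fold change of -1.13 ± 0.299 (SE). The vehicle library numbered 4 held the 20 reads, and without it the log2 fold change was -0.93. Steap1 and Steap2 lie next to each other on chromosome 5 and differed in opposite directions. The lower coordinates of the 2 genes lie 71.5 kb apart in the table.

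Summed over the family, the libraries held 2720 to 2945 reads with vehicle and 7539 to 8046 with purmorphamine. Once reads were divided by exonic length, Steap4 made up 41.3% ± 0.252 (SD, n = 3) of the family's level with vehicle and 67.2% ± 2.41 (SD, n = 4) with purmorphamine. Steap3, which made up the largest share with vehicle (45.3% ± 0.384), made up 28.6% ± 2.51 with purmorphamine even though its own reads were higher.

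Of the iron importers, Slc11a2 and Slc39a14 differed little between treatments. Slc11a2 (ENSMUSG00000023030, chromosome 15 from 100387898 to 100425072, minus strand) was counted at 565, 501 and 530 reads in DMSO and at 482, 518, 488 and 482 reads after purmorphamine. The groups overlapped, since the purmorphamine library numbered 6 lay above the lowest vehicle library. The log2 fold change was -0.16 ± 0.0642 (SE), and without the vehicle library numbered 2, when it was -0.11, the gene no longer had an adjusted p under 0.2 in edgeR's fit. A gene of the opposite strand, Gm5475, overlaps Slc11a2, and the counts are of sense reads.

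Slc39a14 (ENSMUSG00000022094, chromosome 14 from 70303469 to 70351425, minus strand) was counted at 1508, 1483 and 1514 reads in DMSO and at 1625, 1695, 1761 and 1643 reads after purmorphamine. The groups did not overlap, but the ratio of the means was only 1.12. Its log2 fold change was 0.12 ± 0.0475 (SE).

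The transferrin receptor was lower with purmorphamine. Tfrc (ENSMUSG00000022797, chromosome 16 from 32608920 to 32632794, plus strand) was counted at 795, 791 and 755 reads in DMSO and at 611, 615, 601 and 729 reads after purmorphamine. The groups did not overlap, although the purmorphamine library numbered 8 lay near the vehicle libraries and apart from the other three. The log2 fold change was -0.34 ± 0.0668 (SE) with that library and -0.40 without it.

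Ferritin heavy chain, the subunit that oxidizes iron for storage, was the most abundant of the 10 genes per length, and its reads were higher with purmorphamine by a ratio of 2.01. Fth1 (ENSMUSG00000024661, chromosome 19 from 9980598 to 9985098, plus strand) was counted at 24928, 25136 and 27108 reads in DMSO and at 52420, 53142, 50517 and 50478 reads after purmorphamine. No library of one treatment came near those of the other. The log2 fold change was 0.96 ± 0.0497 (SE), and the share of all reads went from 0.179% ± 0.00839 (SD, n = 3) to 0.360% ± 0.00944 (SD, n = 4). Ferritin genes have near-identical processed copies elsewhere in the genome, so part of these reads may be split among copies.

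Ferroportin, the exporter, was lower. Slc40a1 (ENSMUSG00000025993, chromosome 1 from 45908068 to 45926523, minus strand) was counted at 120, 124 and 125 reads in DMSO and at 65, 66, 67 and 72 reads after purmorphamine. The groups did not overlap and the libraries of a treatment were close to each other. The log2 fold change was -0.91 ± 0.114 (SE). Fth1 and Slc40a1, each with a match in the 5′ untranslated region, differed in opposite directions. Tfrc, with matches in the 3′ untranslated region, was lower. Any part of these elements in the differences was not tested.

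Heme oxygenase 1 did not separate the treatments. Hmox1 (ENSMUSG00000005413, chromosome 8 from 75093621 to 75100589, plus strand) was counted at 841, 804 and 954 reads in DMSO and at 868, 890, 713 and 760 reads after purmorphamine. Libraries of the treatments were interleaved, and the log2 fold change was -0.15 ± 0.0771 (SE). It was -0.067 without the vehicle library numbered 4 and -0.090 without the purmorphamine library numbered 7. The adjusted p from edgeR was no longer under 0.2 without either, without the purmorphamine library numbered 8, or without TMM scaling.

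Levels were compared between genes as reads per kilobase of exon, with the exons of all transcripts of a gene merged. With vehicle, Fth1 stood highest at 7415 ± 347 reads per kilobase (SD, n = 3), followed by Hmox1 at 495 ± 44.6, Steap3 at 241 ± 12.7 and Steap4 at 220 ± 9.22. Below these came Slc39a14, Tfrc, Slc11a2 and Steap2 in that order, from 142 ± 1.56 to 59.9 ± 1.86, and Slc40a1 (13.7 ± 0.294) and Steap1 (11.6 ± 2.52), whose libraries overlapped each other. No other neighbours in this order overlapped. With purmorphamine the order was Fth1 (14886 ± 389 reads per kilobase, SD, n = 4), Steap4 (1220 ± 26.8), Steap3 (521 ± 55.3) and Hmox1 (461 ± 48.5), and then the same 6 genes in the same order. Steap4 thus moved past Steap3 and Hmox1 with purmorphamine, and only Steap3 and Hmox1 overlapped there. With the longest transcript in place of merged exons, Slc39a14 stood above Steap3 and Steap4 with vehicle (293 ± 3.21 reads per kilobase), Fth1 reached 12475 ± 583, and Slc40a1 (31.3 ± 0.674) no longer overlapped Steap1 (13.0 ± 2.82).

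**Figure D2:**
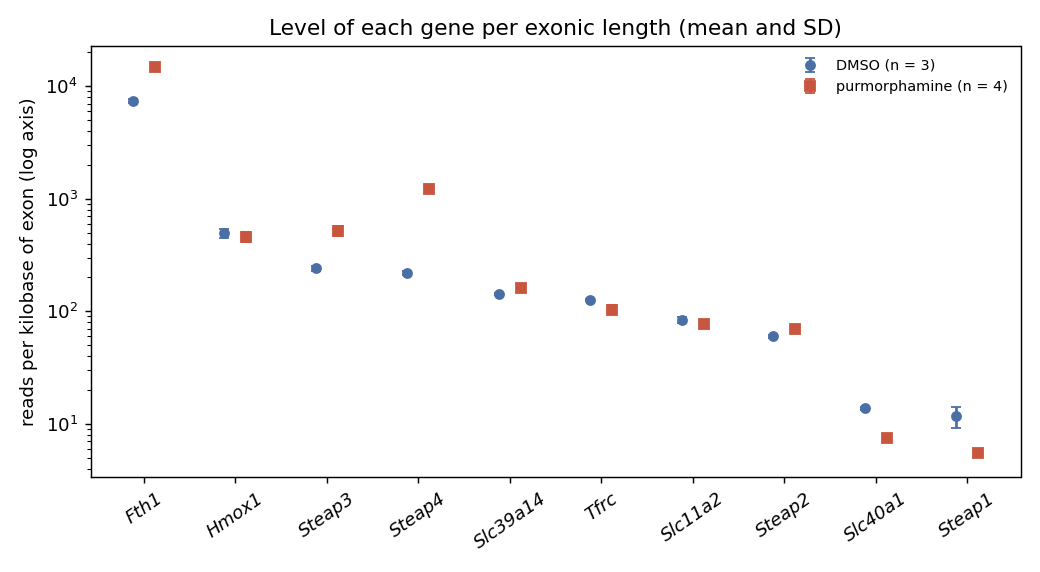
Level of each gene as reads per kilobase of exon on a log axis, with points for the mean and bars for the SD (DMSO, n = 3; purmorphamine, n = 4), ordered by the DMSO level. Fth1 stands above the other 9 genes in both treatments, and Steap4 goes from 220 to 1220 reads per kilobase.

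The wider iron and heme pathway was examined with 7 lists of 75 genes other than those above, of which 69 had a row and 60 were tested. Of the 60 genes, 17 rose and 19 fell at an adjusted p under 0.2 in edgeR's quasi-likelihood test, or 60.0%, close to the 62.5% of all genes tested. Their median log2 fold change was -0.016, against 0.0038 for all genes tested. Over all genes tested 31.4% rose and 31.1% fell, and the count of each list below stands beside these shares. With a change of at least 1.5-fold also required, 3 rose and 4 fell.

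In the list for iron uptake, 3 of 6 tested genes rose and 2 fell. Scara5, a scavenger receptor that takes up ferritin, was counted at 11049, 10801 and 11649 reads in DMSO and at 31590, 33212, 31931 and 31117 reads after purmorphamine. The purmorphamine libraries lay well above the vehicle libraries, and Scara5 rose with a log2 fold change of 1.47 ± 0.0493 (SE, with an edgeR adjusted p = 3.38e-13). Mcoln1, which releases iron from late endosomes and lysosomes, rose by 0.29 on the log2 scale, and Snx3, which returns the transferrin receptor to the cell surface, fell by 0.44. Lcn2, which binds iron through siderophores and was named after its values were seen since its mean was below 50 reads, was counted at 28, 42 and 48 reads in DMSO and at 3, 0, 5 and 3 reads after purmorphamine. Lcn2 passed the filter on low counts only through the vehicle libraries, where it was higher. Its call is included in the counts above but is given no weight. Exoc6, also named after its values were seen with a mean below 50 reads, rose by 0.80 on the log2 scale. It was counted at 27, 30 and 32 reads in DMSO and at 67, 48, 47 and 52 reads after purmorphamine. Transferrin itself (Trf) and Tfr2 had at most 5 reads in any library and were not tested.

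Of the 4 storage genes tested, 2 rose and 1 fell. Ftl1, the ferritin light chain, was counted at 4249, 4353 and 4771 reads in DMSO and at 6887, 7553, 5519 and 6183 reads after purmorphamine, a log2 fold change of 0.50 ± 0.0791 (SE, with an edgeR adjusted p = 5.4e-05). The groups did not overlap, but the purmorphamine libraries of Ftl1 were more spread than those of Fth1. The ratio of Fth1 to Ftl1 reads ran from 5.68 to 5.87 with vehicle and from 7.04 to 9.15 with purmorphamine. Ftl1-ps1, a copy of Ftl1 with its own row, had 17 to 29 reads in any library. The iron chaperones of ferritin differed in direction, with Pcbp1 at -0.24 and Pcbp2 at 0.09 on the log2 scale (adjusted p = 0.000814 and 0.126 from edgeR). Pcbp2 was not called without the vehicle library numbered 2 or the purmorphamine library numbered 7 (log2 fold changes of 0.077 and 0.071). Ncoa4, the receptor for ferritin breakdown, had a log2 fold change of 0.06 and was not called.

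Ceruloplasmin (Cp), a ferroxidase that works with ferroportin, was the only tested gene of the export list, as Heph, Hephl1 and Hamp had at most 4 reads in any library. Cp was counted at 1831, 1872 and 1833 reads in DMSO and at 1024, 1019, 1044 and 1101 reads after purmorphamine. It fell with a log2 fold change of -0.86 ± 0.0465 (SE, with an edgeR adjusted p = 1.08e-10), a value near that of Slc40a1.

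In the list for iron regulatory proteins and hepcidin control, 6 of 8 tested genes fell and none rose, beside 31.1% of all genes tested that fell. With single libraries left out, 5 to 7 of the 8 fell and 0 to 1 rose. The list was chosen with earlier results of these data known, so nothing is read from this count. Named to show what the list holds, Hfe fell on 31 to 53 reads a library. Zfp36 fell by 0.27 with groups that overlapped, and Zfp36l1 by 0.13. Aco1, which encodes iron regulatory protein 1, went from 3456, 3516 and 3683 reads to 2779, 2686, 2623 and 2854, a log2 fold change of -0.42 ± 0.0462 (SE, with an edgeR adjusted p = 9.25e-07). Ireb2, which encodes iron regulatory protein 2, fell by 0.20 on the log2 scale (adjusted p = 0.00459 from edgeR). Neo1, or neogenin, a coreceptor in hepcidin control that also serves in axon guidance, fell by 0.75. Fbxl5, the ubiquitin ligase subunit that removes iron regulatory protein 2 when iron is plentiful, was not called (log2 fold change -0.06).

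For mitochondrial iron and iron-sulfur clusters 5 of 23 tested genes rose and 5 fell, among them the mitochondrial importer Slc25a37 (log2 fold change 0.33), the cochaperone Hscb (0.42) and the glutaredoxin Glrx5 (-0.49). For heme synthesis 3 of 10 rose and 2 fell. The rate-limiting enzyme Alas1 rose by 0.39 on the log2 scale, Ppox by 0.47, and Tmem14c fell by 0.21. For heme breakdown and transport 4 of 8 rose and 2 fell. The heme transporter Slc48a1 went from 652 to 743 reads with vehicle to 990 to 1154 with purmorphamine, a log2 fold change of 0.59 ± 0.0633 (SE, with an edgeR adjusted p = 7.69e-07). Blvrb, a biliverdin reductase, rose by 0.56, and the heme and folate transporter Slc46a1 fell by 0.59.

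**Figure D3:**
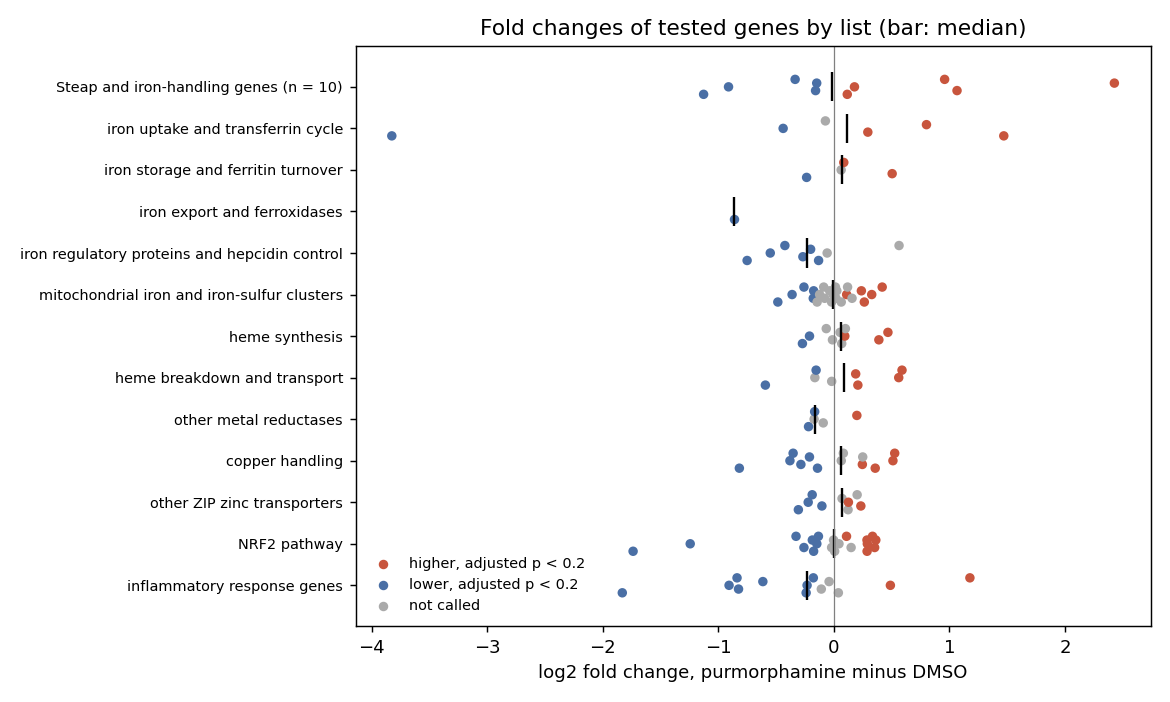
Log2 fold changes of the 10 genes and of the tested genes in 12 lists, one point a gene, with bars for the median of each list and colour for an adjusted p under 0.2 from edgeR. The points of most lists lie on both sides of 0, and those of iron regulatory proteins and hepcidin control lie mostly below it.

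Other reductases listed beside the Steap family differed little between treatments. The list was not limited to enzymes that reduce metals. Of 5 tested, 1 rose (Por) and 2 fell (Cybasc3 and Cyb5r3), with log2 fold changes between -0.22 (Cybasc3) and 0.20 (Por). With single libraries left out, 0 to 1 rose and 2 to 3 fell, so the call of Por did not always hold. Cybrd1, the duodenal ferrireductase, had at most 4 reads in any library. Among the copper genes, since STEAP proteins reduce copper as well, 4 of 13 tested rose and 6 fell. The importer Slc31a1 fell by 0.38 on the log2 scale and the exporter Atp7a by 0.35, both named after their values were seen. Slc31a2 rose by 0.53 and the metallothionein Mt1 by 0.51, and Lox, a copper enzyme that crosslinks collagen, fell by 0.82. Of 9 tested relatives of Slc39a14, 2 rose and 4 fell. Slc39a1 rose by 0.13 on the log2 scale and Slc39a9 fell by 0.19.

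The genes of the transcription factor NRF2 were examined because Hmox1, Fth1 and Slc40a1 are among its known targets. Of 20 tested, 7 rose and 8 fell, beside 31.4% and 31.1% of all genes tested, with a median log2 fold change of 0.0020. With single libraries left out, 6 to 8 of the 20 rose and 5 to 8 fell. Nqo1, a standard NRF2 target, was counted at 2547, 2297 and 2545 reads in DMSO and at 1211, 894, 975 and 1221 reads after purmorphamine, and it fell with a log2 fold change of -1.24 ± 0.0850 (SE, with an edgeR adjusted p = 2.45e-09). Other targets went either way. Gclm rose by 0.33, Gclc and Srxn1 by 0.29 and Gsr by 0.11 on the log2 scale, whereas G6pdx fell by 0.33, Txnrd1 by 0.26 and Prdx1 by 0.19. Nfe2l2, the gene of NRF2 itself, rose by 0.29. All of these were named after their values were seen. Slc7a11, a cystine transporter, was lower on at most 14 reads a library. It is counted among the 8 that fell but passed the filter on low counts only through the vehicle libraries. Its call is given no weight. Bach1, a repressor of Hmox1, rose by 0.35 and its partner Mafg by 0.36, with the purmorphamine library numbered 6 apart from the others for Mafg.

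Steap4 and Slc39a14 can be induced by inflammatory signals, and genes of such signals were examined in a list of 13 tested genes. Of the 13, 2 rose and 8 fell, beside 31.4% and 31.1% of all genes tested. Osmr, a receptor for oncostatin M, fell from 2530, 2565 and 2554 reads to 1323, 1427, 1484 and 1385, a log2 fold change of -0.91 ± 0.0481 (SE, with an edgeR adjusted p = 8.93e-11). The chemokine Ccl2 fell by 1.83 and Cxcl1, another chemokine, rose by 1.18 on the log2 scale. Named to show what the list holds, Il6ra rose by 0.49, Nfkbia fell by 0.83, Il1r1 by 0.61 and Stat3 by 0.18. Il6st and Socs3 were not called. Il6 was lower on 4 to 17 reads a library and passed the filter on low counts only through the vehicle libraries. Its call is given no weight. Any part of inflammatory signals in the differences of Steap4 and Slc39a14 was not tested.

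Steap4 is also a marker of pericytes, and markers of other cell types were counted beside these results. Of 6 tested pericyte markers 2 rose and 2 fell. Cspg4 rose by 0.43 and Notch3 by 0.32 on the log2 scale, whereas Mcam fell by 0.74 and Rgs5 by 0.79, the last on 14 to 37 reads a library. The summed reads of the list ran from 8445 to 9258 with vehicle and from 8710 to 10316 with purmorphamine. Most of these reads came from Pdgfrb, with 6686 to 7851 a library and a log2 fold change of -0.03. Neither Pdgfrb nor Anpep, with 551 to 887 reads a library, was called. Notch3 was not called without the vehicle library numbered 3 or the purmorphamine library numbered 6 (log2 fold changes of 0.28 and 0.18). Kcnj8, Abcc9 and Des, which help define pericytes, had at most 6 reads in any library. The macrophage markers, of interest since macrophages are rich in ferritin and ferroportin, summed to 56 to 60 reads with vehicle and 55 to 76 with purmorphamine, with Ptprc, Csf1r and Itgam at 3 reads or fewer. Erythroid markers summed to at most 7 reads in a library and hepatocyte markers to at most 1. The endothelial markers summed to 779 to 822 and 1899 to 2154 reads, nearly all of them from Tek, which rose with a log2 fold change of 1.25. Pecam1, Kdr and Vwf had at most 5 reads, whereas Cdh5 had 0 reads with vehicle and 21 to 26 with purmorphamine. Epithelial markers summed to 14 to 23 and 111 to 136 reads, nearly all from Cdh1, and adipocyte markers to 47 to 65 and 19 to 28. The part of other cells in the differences of Steap4, Fth1 and the other genes was not tested.

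Genes near the Steap loci were listed by position alone, taking every gene that starts within 1 Mb of a Steap gene in the coordinates of the table (mm9, per the submitters' processing notes). The start of a gene here is its lower coordinate, whichever its strand. Of 34 such genes 21 were tested, of which 8 rose and 7 fell, beside 31.4% and 31.1% of all genes tested. Around Steap4 the 6 tested genes had log2 fold changes from -0.92 to 0.46. The nearest tested gene, Sri, which encodes the calcium-binding protein sorcin and starts 85.6 kb away, rose by 0.46 (adjusted p = 3.95e-07 from edgeR). Dbf4 and Slc25a40 rose by 0.44 and 0.34, and the drug transporters Abcb1a and Abcb1b fell by 0.92 and 0.30, Abcb1a on 4 to 23 reads a library and with groups that overlapped. Around Steap3 the 9 tested genes ran from -0.67 (Dbi) to 0.57. Steap1 and Steap2 share the same neighbours, and the 6 tested had log2 fold changes from -0.30 (Gm15459) to 0.51 (A330021E22Rik). Of these, A330021E22Rik, Cdk14 (0.46), Fzd1 (0.32) and Gm15459 were further from 0 than Steap2 at 0.18.

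**Figure D4:**
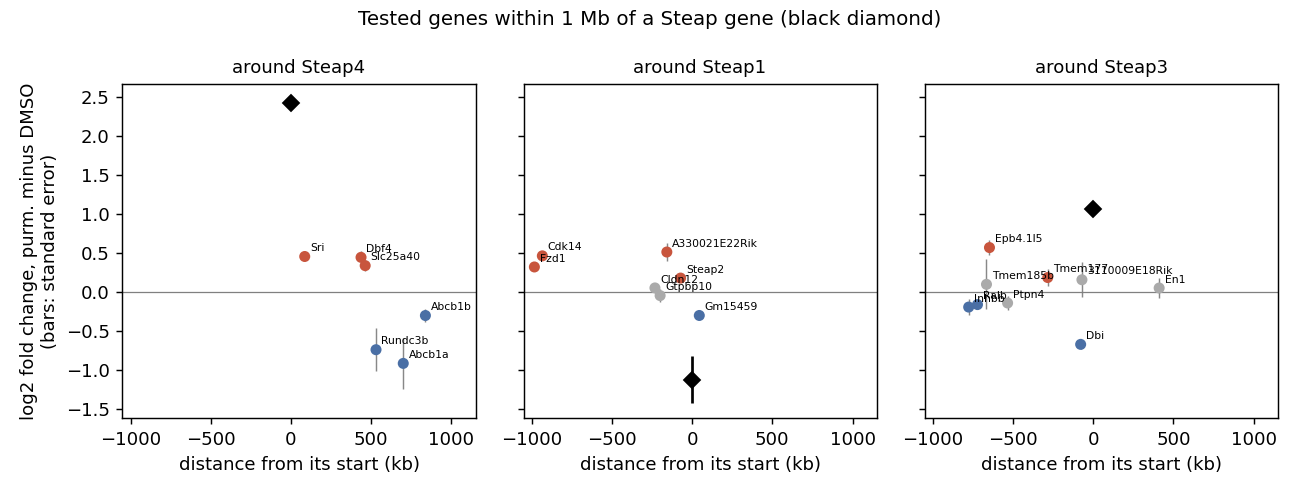
Log2 fold changes (bars, standard error) of tested genes within 1 Mb of Steap4, Steap1 and Steap3 against the distance between gene starts (lower coordinates) in kilobases. The black diamond is the Steap gene, and Steap4 at 2.43 stands above its 6 tested neighbours, which lie between -0.92 and 0.46.

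In the promoter windows of RefSeq (GRCm38.p6, from 250 bases before to 50 after a start) 6 of the 10 genes had 13 windows, some of them with several starts. No window was at hand for Slc40a1, Slc11a2, Slc39a14 and Hmox1, so their promoters were not searched. The GLI motif GACCACCCA was in none of the 13 on either strand, and in 0.253% of all 32851 windows. The antioxidant response element TGACNNNGC was in 1 of the 13, a window of Steap2, and in 12.4% of all windows. These say only which letters lie in the windows searched.

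The genes whose pattern lay nearest to Steap4 were found among genes averaging 50 reads or more, by the root mean square difference of log2 CPM (counts scaled to library size) over the 7 libraries, each gene centred on its vehicle mean. They were Foxd1, a forkhead transcription factor (difference 0.0545), Ahr, the aryl hydrocarbon receptor (0.108), Tdrd9 (0.12), the scaffold protein gene Magi1 (0.129) and Trp63, which encodes p63 (0.132). Foxd1 was counted at 192, 197 and 199 reads in DMSO and at 1090, 1047, 1034 and 1123 reads after purmorphamine, a ratio of 5.48 beside the 5.56 of Steap4. The likeness rests on a difference between treatments of similar size.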

How the data were processed

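Total RNA depleted of ribosomal RNA was sequenced by the authors as single reads from a stranded kit. The authors resampled the reads to equal numbers per library, counted sense reads per gene, and deposited the resulting whole-number counts. The submitters' processing notes name STAR 2.5.3a and mm9. The annotation is not given in the sources used here. The single table and all 7 columns were used, with libraries grouped by their titles.

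From the counts, edgeR 4.0.16 (R 4.3.3) was run after TMM scaling, with its standard low-count filter (minimum 10, total 15) and a quasi-likelihood test without covariates. A gene was called where its p, adjusted by Benjamini-Hochberg, was under 0.2, which is the FDR of the study. Standard errors were derived from fold changes and F statistics. Means, SDs and ratios are of the deposited counts. DESeq2 1.42.0, limma-voom (limma 3.58.1), other scaling and filters, stricter thresholds and each library left out were alternatives. The scripts were tested on simulated data.

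The 10 genes and all lists were chosen with earlier results of these data known. Named from each list were the 3 largest changes among called genes averaging 50 reads or more and groups that did not overlap, with others marked as named later or named to show what a list or marker set holds. Positions and exonic lengths were looked up by Ensembl identifier in GENCODE M21 (GRCm38), with a match for 17632 of 18468 genes. p-values measure only the spread between these libraries.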

Additional observations from a re-analysis of the deposited data

Results flagged for a closer look

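For Tfrc and Mafg, 1 of the 4 purmorphamine libraries lay far from the rest. Divided by the range of the 4 libraries, its distance to the next was 0.947 for Tfrc, where the library numbered 8 was high, and 0.938 for Mafg, where the library numbered 6 was high with 970 reads against 856 to 859. With 51 genes examined, about 2.55 such genes arise by chance at 1 in 20, and 2 were found.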

How the results depend on the processing

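No paired analysis was possible because the treatments share no library number. The 10 genes kept their direction under all 12 alternatives, except that Steap1 could not be tested where every library had to hold 10 counts. With single libraries left out, the log2 fold change of Steap1 ran from -1.22 to -0.93 (without DMSO replicate 4), and with library totals alone that of Slc39a14 was 0.16 in place of 0.12. Requiring 1.5-fold left 977 increased and 936 decreased genes in all (3887 and 3854 without it), 3 and 4 of the iron and heme genes, and 0 and 3 of the genes near the Steap loci, by the construction of the threshold. With library totals alone 4650 genes rose and 3163 fell, and among the iron and heme genes 21 and 17. Not every gene named above was followed singly under the alternatives, with Por and Gsr among those that were not. Among the genes outside the 10 that were followed, 4 calls were lost (Pcbp2 and Notch3, with a library left out) and 5 were gained. The gains were Lyz2 with library totals alone and without purmorphamine replicate 6 or 8, Ncoa4 with library totals alone, and Fbxl5 without purmorphamine replicate 7, and the cause was not tested. Depth limits Steap1, with at most 20 reads.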
